A study of Penicillium oxalicum with 15 samples.

Results

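The response to cellulose was measured in gClrBID, a strain of the filamentous fungus Penicillium oxalicum. Per the labels its altered gene is an overexpressed, internally mutated form of ClrB, a transcription factor. The promoter, the copy number and the number of transformants are not given in the sources used here. The 3 gClrBID libraries on cellulose were set against the 3 gClrBID libraries on glucose, 6 of the 15 libraries of the series. All genes that reached 1 FPKM (a library's fragments per gene, divided by gene length and library total) in at least 3 of the 15 libraries were taken, which gave 8765 of 9976 genes. The choice used no difference between groups. Mycelia of every strain were first grown for 22 h in Vogel's medium with 2% glucose. They were then moved for 4 h at 30 °C and 200 rpm to the same medium with either 2% (w/v) cellulose or 2% (w/v) glucose. The reference strain M12, on the same carbon sources with 3 libraries each, served for comparison. A creA deletion strain on cellulose, also 3 libraries, entered the estimate of the spread between replicates. Every gClrBID library carries the ClrB mutant, so the carbon response below is that of an altered strain on both sides.

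Filamentous fungi that live on plant material secrete cellulases, which cut cellulose into short chains and cellobiose, and beta-glucosidases, which split cellobiose into glucose. Their genes are normally kept silent by glucose through the repressor CreA. They are switched on during growth on cellulose by zinc cluster activators such as ClrB, with XlnR acting on xylanase genes and AmyR on starch-degrading enzymes.

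The libraries held 13482301 to 15267426 fragments for gClrBID on cellulose and 10129672 to 13427079 for gClrBID on glucose, as worked back from the deposited values. Between replicates, Pearson's r across the log values of the tested genes lay between 0.992 and 0.995 on cellulose and between 0.995 and 0.996 on glucose. Replicates 1 and 3 of gClrBID on cellulose stood farthest apart. Of 6746 genes with a mean of at least 10 FPKM there, 153 differed at least 1.5-fold between these libraries, 126 of them higher in replicate 3. The other pairs of gClrBID libraries differed so in 17 to 38 genes. The series text speaks of biological triplicates and does not describe the cultures, so the spread behind each p-value is that of these libraries and may be partly technical. The deposited table gives locus tags only, and 0 of its 9976 identifiers matched the RefSeq gene table of strain HP7-1 (assembly ASM172317v3). The gene names printed for 15 tags come from prior knowledge of the species and are not in the sources used here. Loss of PDE_03168 in the creA deletion (a mean of 0.053 FPKM, against 434 in M12 on cellulose) and the high level of PDE_05999 in gClrBID on glucose (469 FPKM, against 10.1 in M12) go with the names creA and clrB. On cellulose PDE_05999 was instead lower in gClrBID than in M12 (73.7 against 153 FPKM), so its check rests on glucose alone. The other names were not checked.

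The activator gene clrB (PDE_05999) itself was far lower on cellulose than on glucose in gClrBID. It had 56.0, 76.2 and 88.8 FPKM in the 3 cellulose libraries, against 465, 488 and 456 FPKM in the 3 glucose libraries. All cellulose libraries lay below all glucose libraries, and the values on cellulose were spread more widely. The log2 fold change was -2.68 ± 0.11 (limma SE from a spread pooled over all 15 libraries, Benjamini-Hochberg adjusted p = 1.1e-12). By mean FPKM clrB was 6.37 times as high on glucose as on cellulose. It was the only gene of the 16 described here by role that differed at least 1.5-fold between replicates 1 and 3 on cellulose. The table has 1 row for clrB, in which fragments of the native gene and of the introduced mutant cannot be told apart. In M12 the gene moved the other way, with 153 ± 6.43 FPKM on cellulose and 10.1 ± 0.345 FPKM on glucose (SD, n = 3 each). On cellulose clrB was thus lower in gClrBID than in M12, with a log2 fold change of -1.065 ± 0.111 (SE, limma adjusted p = 6.6e-07).

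**Figure D1:**
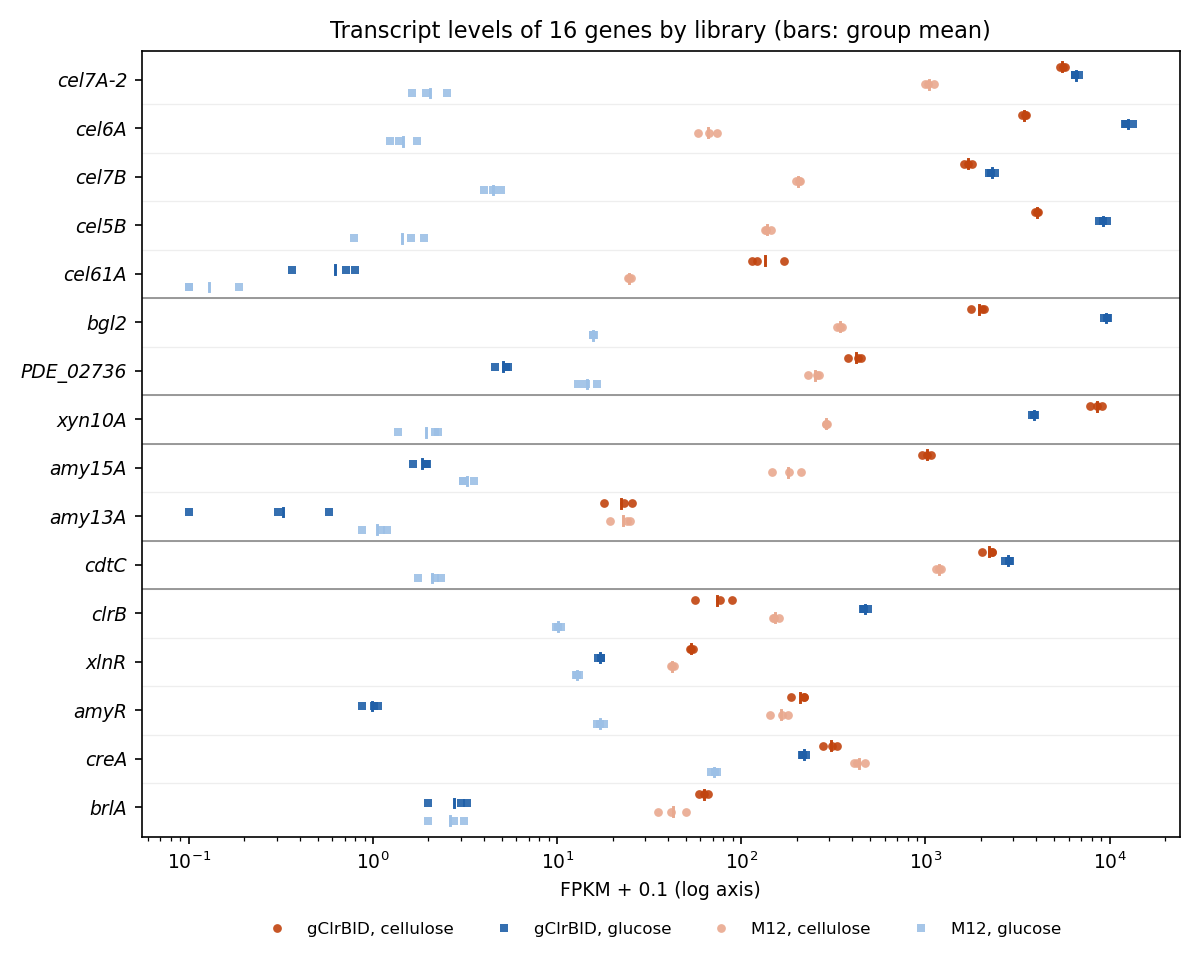
FPKM + 0.1 on a log axis for 16 genes in each gClrBID and M12 library, with points for libraries, small vertical bars for group means and lines separating cellulases, beta-glucosidases, the xylanase, amylolytic enzymes, the transporter and regulators. Most cellulase genes, bgl2, cdtC and clrB have their highest values in gClrBID on glucose (dark squares). In contrast, cel61A, PDE_02736, amyR and the amylolytic genes are low there and far higher on cellulose.

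Over all tested genes 7335 (83.7%) were called at an adjusted p under 0.05, with 4332 higher (49.4%) and 3003 lower (34.3%) on cellulose than on glucose. The libraries of both carbon sources did not overlap for 7371 genes (84.1%), and so for each of the 16 genes. With a call being this common, size and direction tell more than the call. Of the 16 genes 9 rose and 7 fell, with a median log2 fold change of 0.81, beside 0.21 over all tested genes. In M12 all 16 rose, with a median of 4.50, beside a median of -0.02 and a share of 41.3% higher over all tested genes. These 16 genes were chosen with earlier results of these data known.

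The 5 cellulase genes, all called higher on cellulose in M12, were split in gClrBID. Of them 4 fell and 1 rose, with a median log2 fold change of -0.42.

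cel6A (PDE_07124), for a cellobiohydrolase that cuts cellobiose from chain ends, had 3491, 3512 and 3331 FPKM on cellulose, against 12208, 12168 and 13330 FPKM on glucose. It fell by 1.87 ± 0.08 on the log2 scale (SE, adjusted p = 2.3e-12). On glucose it was the most abundant of all genes by mean FPKM, and on cellulose it ranked 28.

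cel5B (PDE_09226), for an endoglucanase that cuts within chains, had 3937, 4098 and 4018 FPKM on cellulose and 8754, 9224 and 9717 FPKM on glucose, and fell by 1.20 ± 0.13 (SE, adjusted p = 1.8e-07). cel7B (PDE_07929), for another endoglucanase, had 1788, 1692 and 1628 FPKM on cellulose and 2257, 2216 and 2384 FPKM on glucose. Its fall by 0.42 ± 0.06 (SE, adjusted p = 5.0e-06) was a small one, although the groups were apart. The cellobiohydrolase gene cel7A-2 (PDE_07945) was nearest to no change, at 5586, 5691 and 5346 FPKM on cellulose and 6471, 6474 and 6844 FPKM on glucose. Its fall by 0.25 ± 0.08 (SE, adjusted p = 0.0094) did not hold when FPKM were rescaled to TPM, which gave -0.13 (adjusted p = 0.147; the alternatives ranged over 5.58e-05 to 0.147).

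Because these genes fell by different amounts, the order of cellulase transcripts changed. The ratio of cel6A to cel7A-2, both per length, was 0.622 ± 0.00420 on cellulose and 1.90 ± 0.0376 on glucose (SD, n = 3 each). The 3 ratios on cellulose all lay below the 3 on glucose, where an exact two-sided permutation test gives its smallest possible p of 0.1. On cellulose cel7A-2 stood above cel5B and cel6A, whereas on glucose cel6A stood above cel5B and cel7A-2, with no overlap between neighbours in either order.

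cel61A (PDE_05633), for a lytic polysaccharide monooxygenase that cleaves crystalline cellulose by oxidation, behaved unlike the other 4. It had 169.6, 122.2 and 113.8 FPKM on cellulose, against 0.695, 0.263 and 0.612 FPKM on glucose. The glucose values rest on 7, 2 and 6 fragments. cel61A rose by 6.47 ± 0.13 (SE, adjusted p = 1.1e-16), and of the 5 cellulase genes it alone was higher on cellulose than on glucose.

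The beta-glucosidase genes were split in the same way. bgl2 (PDE_00579) had 1764, 2082 and 2022 FPKM on cellulose, against 9303, 9654 and 9845 FPKM on glucose, and fell by 2.30 ± 0.06 (SE, adjusted p = 2.4e-15). PDE_02736, placed in the beta-glucosidase list, had 379, 431 and 449 FPKM on cellulose, against 4.49, 5.19 and 5.32 FPKM on glucose, and rose by 6.13 ± 0.09 (SE, adjusted p = 8.1e-18). bgl2 exceeded PDE_02736 by a factor of 4.66 ± 0.168 on cellulose and of 1927 ± 125 on glucose (SD, n = 3 each; exact two-sided permutation p = 0.1, the smallest possible). In M12 the factor was 1.37 ± 0.0702 on cellulose and 1.09 ± 0.134 on glucose.

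xyn10A (PDE_08094), for a xylanase that cuts the hemicellulose xylan, rose on cellulose, with 9123, 8503 and 7872 FPKM there and 3784, 3890 and 3937 FPKM on glucose. The rise of 1.13 ± 0.09 (SE, adjusted p = 9.9e-09) went with rank 7 among all genes on cellulose and rank 31 on glucose. cdtC (PDE_00607), for a cellodextrin transporter, had 2040, 2293 and 2294 FPKM on cellulose and 2716, 2839 and 2894 FPKM on glucose. Its fall by 0.35 ± 0.07 (SE, adjusted p = 2.0e-04) was past the threshold under every alternative run, at 0.23 to 0.56.

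Both amylolytic genes, which serve the breakdown of starch, rose, and amy15A had the largest log2 fold change of the 10 enzyme genes. amy15A (PDE_09417), for a glucoamylase, had 961, 1021 and 1066 FPKM on cellulose, against 1.87, 1.55 and 1.84 FPKM on glucose, and rose by 8.53 ± 0.12 (SE, adjusted p = 4.5e-18). amy13A (PDE_01201), for an alpha-amylase, had 17.8, 23.0 and 25.4 FPKM on cellulose. On glucose it stood at 0.475, 0 and 0.203 FPKM, from 12, 0 and 5 fragments, and it rose by 4.24 ± 0.15 (SE, adjusted p = 2.0e-13), or by 7.12 with voom weights on fragments. Their activator gene amyR (PDE_03964) rose with them. It had 185, 218 and 218 FPKM on cellulose and 0.768, 0.965 and 0.913 FPKM on glucose, a rise of 6.79 ± 0.10 (SE, adjusted p = 8.2e-18).

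Among the other regulators, xlnR (PDE_07674), which encodes the xylanase activator, rose moderately, by 1.59 ± 0.05 (SE, adjusted p = 2.2e-14), with 52.6, 52.9 and 54.4 FPKM on cellulose and 17.3, 17.2 and 16.5 FPKM on glucose. creA (PDE_03168), which encodes the carbon catabolite repressor, had 277, 329 and 311 FPKM on cellulose and 224, 213 and 217 FPKM on glucose. The difference of 0.48 ± 0.07 (SE, adjusted p = 4.9e-06) was among the smallest of the 16, although the libraries did not overlap. brlA (PDE_00087), which encodes a regulator of conidiation, the formation of asexual spores, had 62.8, 65.5 and 58.5 FPKM on cellulose and 1.90, 3.12 and 2.89 FPKM on glucose, and rose by 4.14 ± 0.15 (SE, adjusted p = 2.5e-13).

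The shift among the enzyme genes changed their share of the transcriptome. The 10 enzyme genes (5 cellulases, 2 beta-glucosidases, xyn10A and 2 amylolytic genes) held 2.80%, 2.82% and 2.65% of all FPKM in the cellulose libraries, against 4.05%, 4.09% and 4.38% in the glucose libraries. The means were 2.76 ± 0.0943% and 4.17 ± 0.177% (SD, n = 3 each; exact two-sided permutation p = 0.1, the smallest possible). The 5 cellulase genes alone held 1.53 ± 0.0467% on cellulose and 2.90 ± 0.145% on glucose. In M12 the 10 genes held 0.253 ± 0.00990% on cellulose and 0.00408 ± 0.000193% on glucose.

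**Figure D2:**
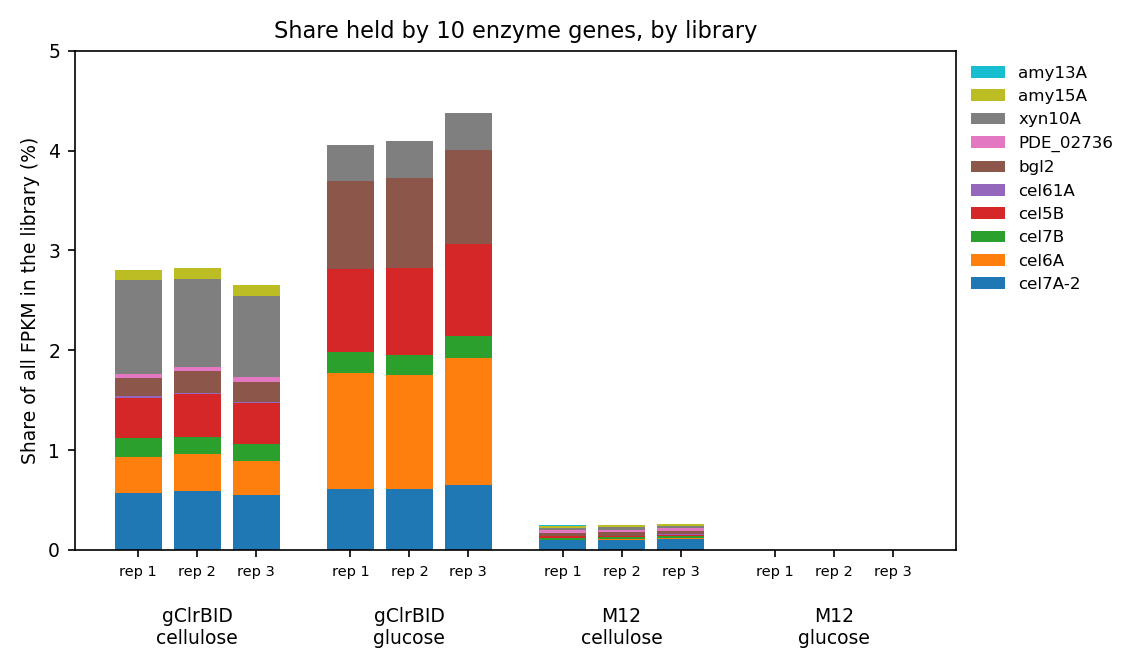
Share of all FPKM held by 10 enzyme genes in each library of gClrBID and M12, in percent, stacked by gene. The gClrBID libraries on cellulose sit at 2.65% to 2.82% and those on glucose at 4.05% to 4.38%, with more xyn10A and less cel6A, cel5B and bgl2 on cellulose; the M12 glucose bars are too low to see.

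Other abundant transcripts were exchanged as well. None of the 10 genes with the highest mean FPKM on cellulose was among the 10 highest on glucose. Among the 50 highest 11 were shared, and among the 100 highest 35. The exchange in M12 was alike, with 0, 9 and 33 shared. Of the 16 genes, cel7A-2 and xyn10A were in the 10 highest of gClrBID on cellulose, and cel6A, cel5B and bgl2 in its 10 highest on glucose. The 10 highest genes of each library held 11.8 ± 0.233% of all FPKM on cellulose and 8.93 ± 0.108% on glucose, while the 500 highest held 60.9 ± 0.306% and 68.5 ± 0.224% (SD, n = 3 each). Transcripts on cellulose were thus more concentrated at the very top and spread over more genes below it. M12 had the same form, with 13.9% on cellulose and 7.27% on glucose for the 10 highest, and 60.7% and 65.6% for the 500 highest. The number of genes at 1 FPKM or more was 8327, 8358 and 8396 in the gClrBID cellulose libraries and 7777, 7772 and 7747 in the gClrBID glucose libraries. In M12 it was 8380 ± 16.8 on cellulose and 8119 ± 15.0 on glucose.

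Large changes were mostly rises. At least 2-fold, 2393 genes (27.3% of those tested) were higher and 1180 (13.5%) lower on cellulose. At least 4-fold, 1188 (13.6%) were higher and 225 (2.57%) lower, and at least 16-fold, 333 (3.8%) were higher and 22 (0.251%) lower. Rises thus made up 59.1% of all called genes, 67.0% of those past 2-fold and 93.8% of those past 16-fold. In M12 the last share was 79.3%, from 268 higher (3.06%) and 70 lower (0.799%) genes; the difference between these shares was not tested. Fold changes on log2(FPKM + 1) understate those of low genes. With a pseudocount of 0.1 the genes past 16-fold numbered 539 higher and 43 lower, and with voom weights on fragments 557 and 47. The excess of rises with no minimum fold depended on scaling. Rises were 51.0% of called genes with median-of-ratios scaling and 64.0% with TPM. Past 2-fold median-of-ratios scaling gave 2132 higher and 1523 lower genes, and past 16-fold 304 and 22.

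**Figure D3:**
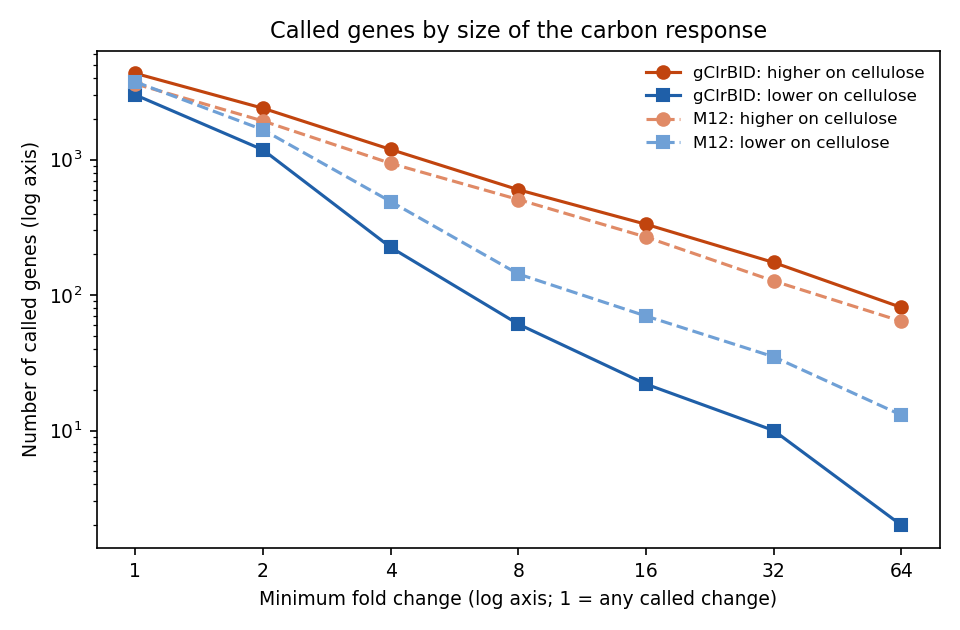
Number of called genes (log axis) that were at least 1, 2, 4, 8, 16, 32 or 64 times higher or lower on cellulose than on glucose (log axis), for gClrBID (solid lines) and M12 (dashed lines). From 2-fold to 16-fold the gap between higher and lower genes widens in both strains. At 16-fold it is 333 against 22 in gClrBID and 268 against 70 in M12.

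The genes that rose at least 16-fold were mostly low on glucose. These 333 genes had a median level of 102 FPKM on cellulose and 1.49 FPKM on glucose in gClrBID. In M12 their median levels were 102 FPKM on cellulose and 4.996 FPKM on glucose. Of the 333, 309 were also called higher in M12, 154 of them at least 16-fold, and 10 were called lower in M12. Over all tested genes 41.3% were called higher in M12, 3.06% at least 16-fold, and 42.8% lower. By a stricter rule, 170 genes had at least 10 FPKM in all gClrBID cellulose libraries and under 1 FPKM in all gClrBID glucose libraries, and 5 genes the reverse. In M12 these numbers were 112 and 21. Of the 170, 51 met the same rule in M12, as did 112 of all 9976 genes. At least 1 FPKM in all M12 glucose libraries was found for 73 of the 170. Over all 9976 genes, a mean of 8119 reached 1 FPKM in an M12 glucose library, a looser rule than reaching it in all of them. The 333 and the 170 were picked by their values in gClrBID, which favours higher glucose levels in M12. Their comparison with M12 is therefore a description.

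The identifiers with the largest changes carry no names here. PDE_04655, a gene with a coding length of 255 bases, had 4133, 4567 and 4722 FPKM on cellulose and 4.67, 2.32 and 0.899 FPKM on glucose, where the glucose values rest on 16, 6 and 3 fragments, and rose by 10.40 ± 0.27 (SE, adjusted p = 4.0e-15). PDE_09098, of 312 bases, had 8275, 9190 and 9933 FPKM on cellulose and 8.83, 6.33 and 8.09 FPKM on glucose, and rose by 10.03 ± 0.11 (SE, adjusted p = 1.9e-19). It ranked 6 among all genes on cellulose in gClrBID and 7 in M12. In the other direction, PDE_01971 had 22.4, 23.8 and 26.1 FPKM on cellulose and 1853, 1966 and 1924 FPKM on glucose, and fell by 6.26 ± 0.08 (SE, adjusted p = 2.3e-18). PDE_03140 had 2.22, 3.34 and 3.35 FPKM on cellulose and 257, 253 and 246 FPKM on glucose, and fell by 6.01 ± 0.11 (SE, adjusted p = 6.9e-17).

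Risen genes tended to have neighbouring tag numbers. Of 1035 genes that rose at least 4-fold and whose next tag was also tested, 336 (32.5%) had a next tag that rose at least 4-fold too, beside 13.6% of all tested genes. For genes that fell at least 4-fold this was 19 of 189 (10.1%), beside 2.57%. There were 28 runs of at least 4 consecutive tag numbers that all rose at least 4-fold, with 149 genes in all, and the longest had 12. The 12 genes of this run stood between 0.0286 and 3.26 FPKM on glucose and between 7.22 and 50.3 FPKM on cellulose. Of the 149 genes, 87 rose at least 4-fold in M12 as well, as did 10.7% of all tested genes. There was 1 such run of fallen genes, with 4 members. That tag numbers follow the order along the chromosomes was not checked here, and none of the 16 genes was in a 4-fold run.

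The carbon responses of gClrBID and M12 share no library, so they can be set side by side. Across the 8765 genes the log2 fold changes had a Pearson's r of 0.756 and a Spearman's rho of 0.763, as a description, since genes are not independent replicates. In M12 1927 genes (22.0% of those tested) rose at least 2-fold, of which 1558 (80.9%) also rose at least 2-fold in gClrBID, against 27.3% of all tested genes, and 30 (1.56%) fell at least 2-fold. A further 1660 genes (18.9%) fell at least 2-fold in M12, of which 858 (51.7%) fell at least 2-fold in gClrBID, against 13.5% of all tested genes, and 58 (3.49%) rose at least 2-fold. Seen from gClrBID, 1558 of its 2393 risen genes (65.1%) and 858 of its 1180 fallen genes (72.7%) met the same rule in M12.

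**Figure D4:**
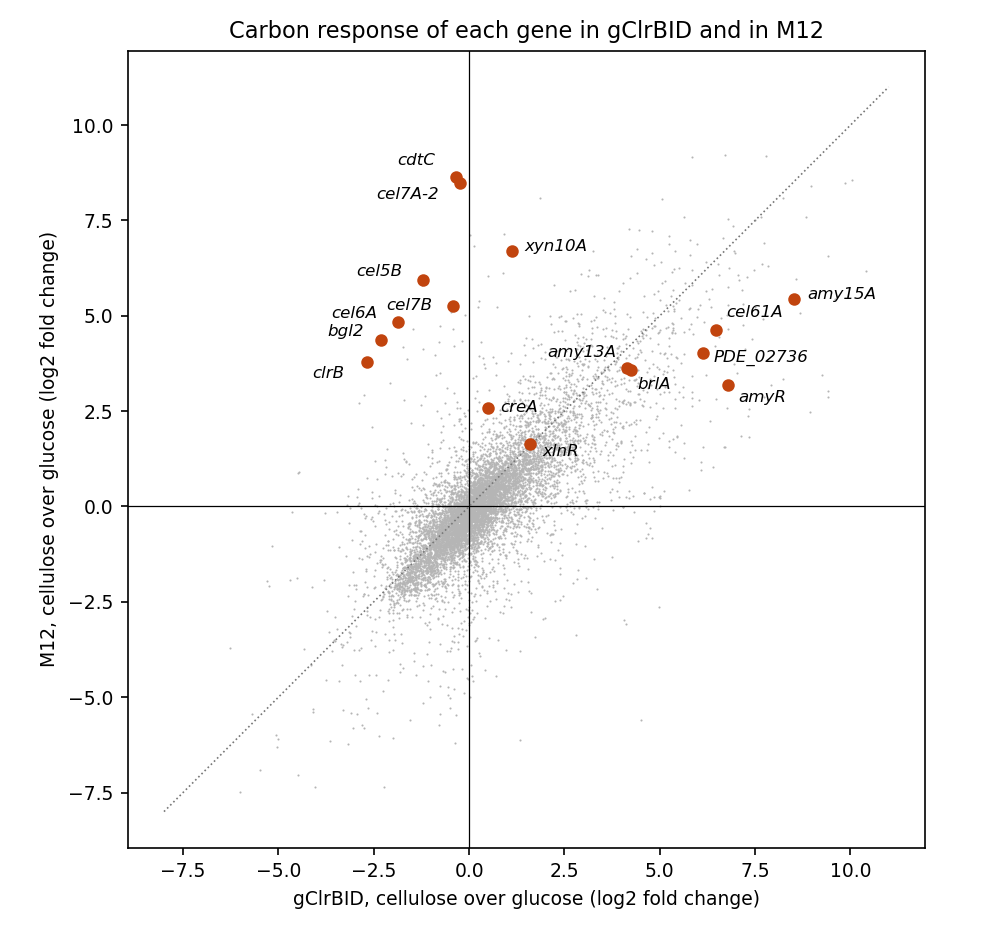
Log2 fold change of cellulose over glucose in gClrBID (horizontal) and in M12 (vertical) for the 8765 tested genes (grey) and 16 genes by role (orange); the dotted line marks equal responses. cdtC, clrB, bgl2 and 4 cellulase genes lie in the upper left, higher on cellulose in M12 and lower in gClrBID, while amyR, amy15A and PDE_02736 lie to the right of the dotted line.

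With no minimum fold, 240 genes were called lower on cellulose in gClrBID and higher in M12, and 572 the reverse. At a minimum of 2-fold, the 30 genes that fell in gClrBID and rose in M12 included 2 of the 5 cellulase genes, cel6A and cel5B, as well as bgl2 and clrB. The 30 had median levels of 75.8 FPKM on cellulose and 263 FPKM on glucose in gClrBID, and of 53.6 FPKM on cellulose and 6.68 FPKM on glucose in M12. On glucose gClrBID exceeded M12 in 28 of the 30, while 17.0% of all tested genes were called so. The opposite group of 58 genes, higher on cellulose in gClrBID and lower in M12, had medians of 22.6 and 3.73 FPKM in gClrBID on cellulose and on glucose, and of 15.3 and 66.4 FPKM in M12. On glucose gClrBID lay below M12 in all 58, beside 54.7% of all tested genes. On cellulose the strains also differed, with 18 of the 30 called higher and 9 lower in gClrBID, and 26 of the 58 higher and 17 lower. Both groups were picked for opposite responses, so these counts are a description.

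Whether the carbon response differed between the strains was tested as an interaction, the log2 response of gClrBID minus that of M12. It was called for 5972 genes (68.1%). The response was more positive in gClrBID for 4208 genes (48.0% of all tested genes) and more negative for 1764 (20.1% of all tested genes). The median interaction over all tested genes was 0.26. Median-of-ratios scaling shifted it by -0.218 and gave 2919 more positive and 2614 more negative responses. Of the 4208 genes, 3461 were called lower in gClrBID than in M12 on glucose, as were 54.7% of all tested genes. On cellulose 1786 of the 4208 were called higher, as were 27.3% of all tested genes. Of the 1764, 1102 were called higher in gClrBID on glucose, as were 17.0% of all tested genes. On cellulose 1099 of the 1764 were called lower, as were 32.1% of all tested genes. With median-of-ratios scaling 2015 of the 2919 were called lower in gClrBID on glucose, and 1951 of the 2614 were called higher. The shares of all tested genes above hold for the deposited scale only, so these last counts have no matching share beside them. These strain differences are the parts of which the interaction is made, so the counts describe it and do not test it.

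Of the 16 genes 15 had a called interaction, 9 negative and 6 positive, of which those of cel61A and brlA were lost under some alternatives. For amyR it was 3.60 ± 0.15 (SE, adjusted p = 7.5e-12). amyR differed little between the strains on cellulose, with 207 ± 18.7 FPKM in gClrBID and 163 ± 18.2 FPKM in M12. It was called higher in gClrBID there, by 0.341 ± 0.105 on the log2 scale (SE, limma adjusted p = 0.011). On glucose it was far lower in gClrBID, with 0.882 ± 0.102 FPKM against 17.0 ± 0.784 FPKM in M12 (SD, n = 3 each). amy13A had the same form, with 22.0 ± 3.87 FPKM in gClrBID and 22.6 ± 2.87 FPKM in M12 on cellulose, and 0.226 ± 0.238 FPKM in gClrBID and 0.953 ± 0.163 FPKM in M12 on glucose. cdtC showed the reverse on glucose, where it was far higher in gClrBID. On cellulose it was also higher in gClrBID, by 0.904 ± 0.069 on the log2 scale (SE, limma adjusted p = 2.0e-08). It had 2209 ± 146 FPKM in gClrBID and 1179 ± 33.0 FPKM in M12 on cellulose, but 2816 ± 91.3 FPKM in gClrBID and 1.98 ± 0.298 FPKM in M12 on glucose. For xlnR, the gene with no called interaction, the difference between the responses was -0.05, with a 95% interval of -0.20 to 0.09. This holds on the deposited scale, and median-of-ratios scaling gave -0.28 (adjusted p = 0.0014, and 0.0014 to 0.677 over all alternatives).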

How the data were processed

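RNA was measured in mycelia by stranded mRNA sequencing, per the labels' protocols. The authors deposited 1 table of FPKM values; its 15 columns carry the sample titles. Per the submitters' processing notes, the tools were HISAT2 2.0.0, CASAVA 1.8, DESeq2 and featureCounts 1.5.0-p1, whose roles and order are not stated. The genome build, annotation and strand setting are not given in the sources used here, so fragments shared by overlapping or near-identical genes could not be assessed.

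Each value should equal a whole number of fragments times a constant of its gene and library, and with a tolerance of 5e-05 FPKM all 9789 genes above 0 gave whole fragments. Lengths were searched among multiples of 3 and read as coding length. Log2(FPKM + 1) values of 8765 genes were fitted with limma 3.58.1 in R 4.3.3, with 1 mean per group over 15 libraries and an intensity trend. A gene counts as called where limma's p, adjusted after Benjamini and Hochberg, lies under 0.05. Data were simulated for the gClrBID comparison, with 8613 genes. In them limma called 99% of the 100 genes given a 2-fold change, 81% of the 100 given a 1.5-fold change and 15 unchanged genes. The simulated spread was fixed, and the changed genes were drawn from well-covered ones. All other genes kept the same mean in every group, whereas 83.7% of the tested genes were called in the data. These rates therefore do not measure recovery or false calls in the real libraries. Shares and ratios were compared with exact permutation tests.

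The genes given by role are 16 listed tags. The ranked ones are the 2 highest and 2 lowest called fold changes with a mean of at least 10 FPKM in the higher group and no overlap between replicates. Genes and lists were chosen with earlier results of these data known. The alternatives were a pseudocount of 0.1, no filter, median-of-ratios scaling, TPM, voom weights on fragments, a replicate block, the gClrBID libraries alone and each library left out.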

Additional observations from a re-analysis of the deposited data

Results flagged for a closer look

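The carbon response of 15 of the 16 genes given by role, and of all 4 ranked by size, differed between gClrBID and M12 in a test of the difference itself (limma interaction, log2 response of gClrBID minus that of M12). Such a call was common, at 68.1% of all tested genes. Of these genes 9 by role had a smaller or opposite response in gClrBID: cdtC (-8.98), cel7A-2 (-8.74), cel5B (-7.13), cel6A (-6.70), bgl2 (-6.66), clrB (-6.48), cel7B (-5.68), xyn10A (-5.56) and creA (-2.10).

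A more positive response in gClrBID was found for amyR (3.60), amy15A (3.09), PDE_02736 (2.10), cel61A (1.84), amy13A (0.64) and brlA (0.51). That of cel61A, near 0 on glucose in both strains, and that of brlA depended on the processing. For amy13A, also near 0 on glucose, the direction held and the size ranged from 0.51 to 2.56 over the alternatives. The ranked genes were chosen for the size of their change in gClrBID, which favours a larger response there, so their values are a description. PDE_04655 (4.22) and PDE_09098 (1.48) rose further in gClrBID. PDE_01971 (-2.55) fell further in gClrBID, and PDE_03140 (1.47) fell less far in gClrBID than in M12.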

How the results depend on the processing

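Numbers of called genes in gClrBID, with no minimum fold or at least 2-fold, stayed within 1.5 times under every alternative run, whereas those past 16-fold did not (333 higher and 22 lower, against 539 and 43 with a pseudocount of 0.1 and 557 and 47 with voom weights). Leaving out 1 library gave 4209 to 4335 higher and 2911 to 3008 lower genes, and median-of-ratios scaling, which moved the median of all genes by -0.173, gave 3768 and 3617, turning the direction of 3 of the 7335 calls. Classes that set gClrBID beside M12 depended more on scaling and on low values. Median-of-ratios scaling changed the genes lower in gClrBID and higher in M12 to 395, from 240, and those higher in gClrBID and lower in M12 to 344, from 572. At a minimum of 2-fold the first class became 46 with voom weights, from 30, and the second, from 58, became 98 with voom weights and 97 with a pseudocount of 0.1. The enzyme genes held 3.78% of whole fragments on cellulose and 6.18% on glucose.

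Of the genes given by role and by size, cel7A-2 alone lost its carbon response, after rescaling to TPM. The interaction of cel61A was 0.18 with a pseudocount of 0.1 and turned to -0.88 (not called) with voom weights. That of brlA (adjusted p of 0.0139 to 0.282 over the alternatives) was lost in 13 of 21 alternatives, among them leaving out gClrBID cellulose replicate 1 (adjusted p = 0.0690), gClrBID cellulose replicate 2 (0.0879), gClrBID glucose replicate 1 (0.126), creA deletion replicate 2 (0.0524), M12 cellulose replicate 2 (0.0725), M12 cellulose replicate 1 (0.122), M12 glucose replicate 3 (0.116) or M12 glucose replicate 1 (0.0833). Replicate numbers did not pair the gClrBID libraries, whose deviations correlated at -0.024 to -0.002, and the replicate block gave 4320 higher and 2990 lower genes. Depth limits the genes near 0 on glucose, such as amy13A and cel61A, whose gClrBID glucose levels rest on 0 to 12 fragments a library. In the M12 glucose libraries amy13A had 26 to 33 fragments and cel61A had 0 or 1.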
